A study of Homo sapiens with 4 samples.

Results

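The genes described here carry the signal of phosphoinositide 3-kinase (PI3K) to AKT, to the mTOR complexes and to the FOXO transcription factors. They were chosen by name, as the rows of both deposited m6A peak lists that bear 1 of 41 gene symbols. Of these 41 genes, 38 had a peak, among 12779 genes with a peak in either list. They held 103 of the 24626 peaks listed with shALKBH5 and 84 of the 22448 peaks listed with shNC. The cells were RPMI-8226, an established human multiple myeloma line, transduced with lentivirus carrying a short hairpin labelled shALKBH5, after the RNA demethylase ALKBH5, or one labelled shNC. For each condition, poly(A) RNA was sequenced after enrichment with an antibody against N6-methyladenosine (IP) and without enrichment (input). With 1 IP and 1 input library per condition and no replicate, a difference between the lists is one between pairs of libraries, and no test between conditions was made. Both conditions share 1 cell line, and for neither do the labels say whether it was a pool or a clone.

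PI3K enzymes convert the membrane lipid PIP2 to PIP3, which recruits the kinases PDK1 and AKT to the membrane. AKT inhibits the TSC complex, the GSK3 kinases and the FOXO factors. Loss of TSC activity lets the small GTPase RHEB activate mTOR complex 1, while amino acid and energy sensors act on the same complex through the RAG GTPases and AMPK. In myeloma the pathway is known for transmitting growth signals of IL-6 and IGF-1. An m6A peak marks a stretch of RNA where IP reads exceed input reads, and it is no measure of how much of the RNA is present.

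The targeted gene ALKBH5 had 3 peaks in each list, each with a partner in the other. The fold of a peak is its ratio of IP over input. All folds and p-values of peaks below come from the authors' deposited tables, 1 table per condition, and they describe peaks within 1 list. The ALKBH5 folds were 5.71, 1.61 and 1.57 with shALKBH5 and 5.98, 1.35 and 1.99 with shNC. These are ratios within a condition, so they do not check the knockdown. Of 10 plasma cell and myeloma markers, 6 had peaks in both lists (SDC1, IRF4, PRDM1, XBP1, CD38 and MZB1). The defining marker TNFRSF17 had none, nor did SLAMF7, JCHAIN and CD27, and a missing peak does not show that a gene is silent. Of the markers of other cell types, PAX5 of 4 earlier B cell genes, CD68 and ITGAM of 4 myeloid genes and CXCL12 of 4 stromal genes had peaks in both lists, while CD8A of 5 T and NK cell genes was in the shALKBH5 list alone and PDGFRB in the shNC list alone. No read counts were given, so the depth of every library is unknown.

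The sequences that follow show where peaks begin at gene starts, since AKT1, AKT2, MAPKAP1 and RPTOR had a start peak in the shALKBH5 list with no partner, while GSK3A, RPS6KB1 and RPS6KB2 had start peaks in both lists that cover the same window bases, and PHLPP1 had start peaks in both lists of which the shNC one alone reaches the window. Each is the RefSeq window from 60 bases before to 30 bases after the annotated start on GRCh38.p14, read 5′ to 3′ on the gene's strand. Capitals mark bases inside a listed peak of the gene.
AKT1 (chr14:104795719-104795808, minus strand): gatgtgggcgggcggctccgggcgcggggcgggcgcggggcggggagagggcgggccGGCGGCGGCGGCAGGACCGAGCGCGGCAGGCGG
AKT2 (chr19:40285316-40285405, minus strand): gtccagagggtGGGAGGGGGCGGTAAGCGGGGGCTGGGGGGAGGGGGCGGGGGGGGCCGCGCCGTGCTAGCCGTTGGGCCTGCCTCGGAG
MAPKAP1 (chr9:125707179-125707268, minus strand): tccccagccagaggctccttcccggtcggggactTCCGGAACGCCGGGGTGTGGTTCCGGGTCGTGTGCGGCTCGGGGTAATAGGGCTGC
RPTOR (chr17:80544778-80544867, plus strand): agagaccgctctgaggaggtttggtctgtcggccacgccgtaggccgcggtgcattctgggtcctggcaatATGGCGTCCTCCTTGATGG
GSK3A (chr19:42242573-42242662, minus strand): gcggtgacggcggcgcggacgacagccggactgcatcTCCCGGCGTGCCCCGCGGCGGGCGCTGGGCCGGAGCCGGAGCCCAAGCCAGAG
RPS6KB1 (chr17:59893061-59893150, plus strand): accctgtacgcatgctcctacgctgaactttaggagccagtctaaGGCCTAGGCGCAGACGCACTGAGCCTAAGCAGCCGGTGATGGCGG
RPS6KB2 (chr11:67428434-67428523, plus strand): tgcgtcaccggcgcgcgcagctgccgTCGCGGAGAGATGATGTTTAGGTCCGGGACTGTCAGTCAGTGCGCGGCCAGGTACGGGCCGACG
PHLPP1 (chr18:62715481-62715570, plus strand): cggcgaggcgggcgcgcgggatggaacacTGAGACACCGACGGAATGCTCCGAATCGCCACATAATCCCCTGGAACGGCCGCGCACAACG
In the AKT1, AKT2, MAPKAP1 and RPTOR windows, 33, 79, 56 and 19 of the 90 bases lay in an shALKBH5 peak and 0 in an shNC peak. In the GSK3A, RPS6KB1 and RPS6KB2 windows, 53, 45 and 64 bases lay in a peak of both lists. The PHLPP1 window went the other way, with 0 bases in an shALKBH5 peak and 61 in an shNC peak. The shALKBH5 peak of PHLPP1 began 179 bp downstream of the start, and the shNC peak began 31 bp upstream of it. The RRAGC window, not printed, had 51 bases in an shALKBH5 peak and 0 in an shNC peak, though its start peaks are partners. These RRAGC peaks began 21 bp upstream of the start with shALKBH5 and 68 bp downstream with shNC. The PIK3R1 window, also not printed, had 36 bases in a peak of both lists. The peaks reached 49 bp upstream of the annotated start at AKT2, 26 bp at MAPKAP1, 23 bp at GSK3A, 34 bp at RPS6KB2, 15 bp at RPS6KB1 and 3 bp at AKT1, while the RPTOR peak began 11 bp downstream of it. RefSeq windows were at hand for all but 4 of the 41 genes (MLST8, AKT1S1, RRAGA and DEPTOR), 58 windows in all. The m6A consensus core, here GGAC followed by A, C or T, was searched in the first 50 transcribed bases, where 2 forms of it cannot begin at the same base. On the transcribed strand 7 of the 58 windows (12.1%) held it, beside 14.5% of all 35116 windows. On the other strand 4 of 58 (6.9%) did, beside 14.0% of all. A match describes the letters only.

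Most of the pathway was marked in both conditions. Of the 41 genes, 35 had peaks in both lists, 3 in the shALKBH5 list alone and 0 in the shNC list alone, and 3 had none. The 3 genes of the shALKBH5 list alone were IRS1, MAPKAP1 and DEPDC5. Over all 12779 genes with a peak, 83.0% stood in both lists, 11.5% in the shALKBH5 list alone and 5.50% in the shNC list alone. Genes without a peak are no part of these shares, which therefore compare with the 38 pathway genes with a peak and not with all 41. RHEB, the GTPase that activates mTOR complex 1, INPP4B, a phosphatase of PI(3,4)P2, and NPRL2, a subunit of the GATOR1 complex, had no peak in either list. Of the 38 genes with a peak, 17 had more peaks with shALKBH5 and 1 had more with shNC (INPP5D). Of the 35 genes in both lists, 20 had equal numbers. In 3 places, at PHLPP1, PHLPP2 and FOXO1, 1 shNC peak shared bases with 2 shALKBH5 peaks, which raises the shALKBH5 count. Over all 12779 genes with a peak, 30.5% had more peaks in the shALKBH5 list, which is the longer one, and 17.1% had more in the shNC list. Pathway genes with a peak had 2.71 peaks on average with shALKBH5 and 2.4 with shNC, beside 2.04 and 1.99 over all genes.

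**Figure D1:**
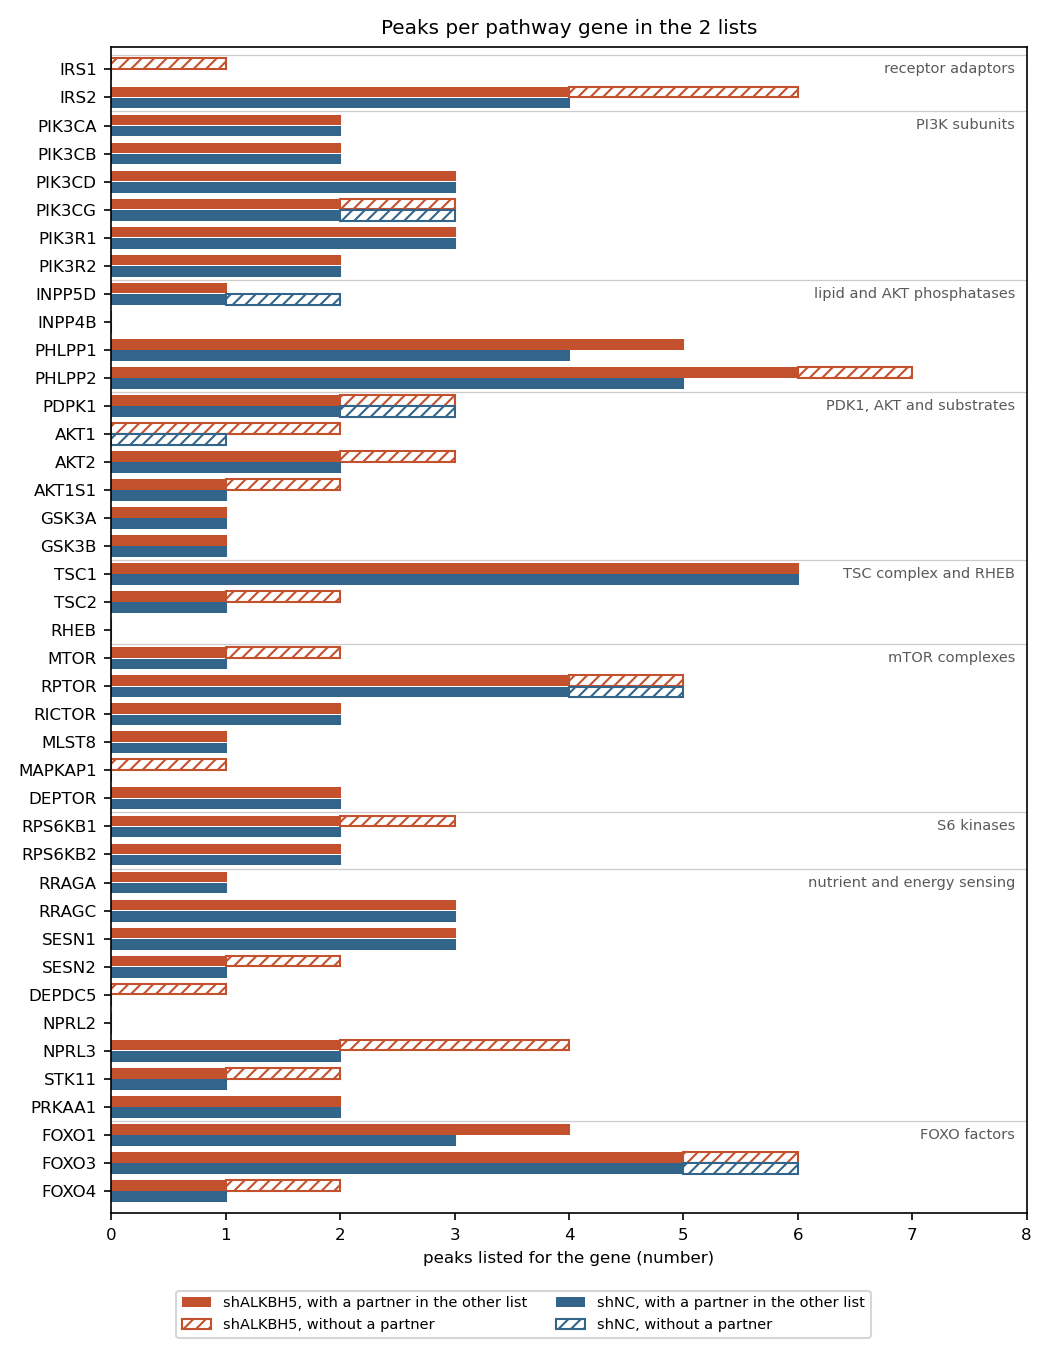
Number of listed peaks (x axis) for each of the 41 genes (y axis), grouped by role, with shALKBH5 above shNC. Filled bars are peaks that share a base with a peak of the other list and hatched bars are peaks that do not, of which there were 22 with shALKBH5 and 6 with shNC.

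A peak was given a partner when at least 1 base of its blocks was shared with a peak of the other list. Of the pathway's peaks, 22 of 103 had no partner with shALKBH5 (21.4%, exact 95% binomial interval 13.9 to 30.5%) and 6 of 84 had none with shNC (7.14%, 2.67 to 14.9%). Over all peaks the shares without a partner were 19.8% for shALKBH5 and 12.6% for shNC. Intervals cover counting error only, and each contains the share over all peaks of its list. The median log10 p of peaks without a partner was -4.7 with shALKBH5 and -5.72 with shNC, and that of peaks with a partner was -30 and -21.4. Over all peaks of each list these medians were -4.32 with shALKBH5 and -4.21 with shNC without a partner, and -23.5 and -21.3 with one. A log10 p below -10 was reached by 4 of the 22 shALKBH5 peaks and 0 of the 6 shNC peaks, beside 9.67% and 5.90% of all peaks without a partner. The 4 were at AKT1, DEPDC5, MAPKAP1 and AKT1S1.

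The pathway's median fold was 6.79 with shALKBH5 and 6.3 with shNC, beside 6.64 and 6.54 over all peaks of each list. Folds ran from 1.44 to 39.4 with shALKBH5 and from 1.58 to 40.8 with shNC. A high fold did not go with a strong p in each case. Of the pathway's peaks, 29 of 103 with shALKBH5 and 19 of 84 with shNC had exactly the fold and p of some other peak of their list, beside 28.6% and 27.0% of all peaks. Such peaks included NPRL3's at chr16:90775-90984 in the shALKBH5 list, whose fold of 17.2 and log10 p of -4.32 were listed for 90 peaks. The start peak of PIK3CB in the shNC list had a fold of 12.5 (log10 p -2.99), values listed for 127 peaks.

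**Figure D2:**
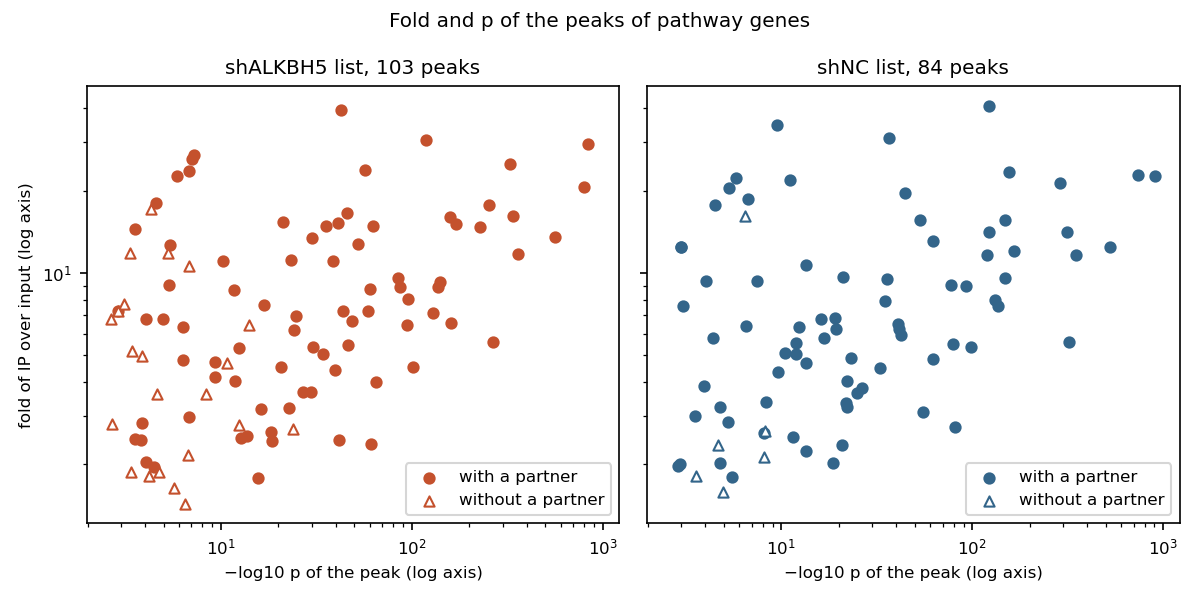
Fold of IP over input (y axis, log scale) against −log10 p (x axis, log scale) for the pathway's 103 shALKBH5 peaks at left and 84 shNC peaks at right. Filled circles have a partner in the other list and open triangles do not, and the triangles lie at log10 p from -23.8 to -2.65 with shALKBH5 and from -8.18 to -3.59 with shNC.

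The receptor adaptors come first in the pathway. IRS1 and IRS2 link the insulin and IGF-1 receptors to PI3K. IRS1 had a single peak, in the shALKBH5 list at chr2:226795742-226795892, with a fold of 7.69 (log10 p -3.12). That peak ranked 23284 of 24626 by p, near the bottom of its list. IRS2 had 6 peaks with shALKBH5 and 4 with shNC, and the additional ones at chr13:109782799-109782888 and chr13:109783906-109783995 had log10 p values of -3.4 and -2.65. The 4 IRS2 sites in both lists had folds of 26.2, 22.6, 9.05 and 27.1 with shALKBH5 and 18.7, 20.5, 12.5 and 5.8 with shNC. Their log10 p lay between -7.21 and -5.34 with shALKBH5 and between -6.73 and -2.99 with shNC.

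All 6 PI3K subunit genes had peaks in both lists, 15 peaks in each, and 1 peak per list without a partner. PIK3CA, the catalytic subunit p110-alpha, held one of the strongest peaks of the whole pathway. At chr3:179233352-179234583, spliced and ending 5510 bp before the gene end, its borders were identical between the lists, with a fold of 29.6 (log10 p -831) with shALKBH5 and a fold of 22.9 (log10 p -734) with shNC. A further PIK3CA peak, at chr3:179198762-179199092 with shALKBH5, had folds of 9.29 with shALKBH5 and 8.99 with shNC. PIK3CB, the p110-beta subunit, had its main peak 2398 bp from the gene end in both lists, with folds of 9.62 and 11.6 for shALKBH5 and shNC. PIK3CD, the p110-delta subunit typical of lymphoid cells, had 3 sites in both, with folds of 14.5, 8.05 and 3.21 with shALKBH5 and 7.58, 9.02 and 4.89 with shNC. The first of these PIK3CD sites had a log10 p of -3.54 with shALKBH5 and -3.07 with shNC.

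PIK3CG, the p110-gamma subunit that acts below G protein-coupled receptors, had its strongest peak at chr7:106905199-106905618, again with identical borders. Its fold was 17.7 and its log10 p -253 with shALKBH5, beside 15.6 and -148 with shNC. A second shared PIK3CG site began 3618 bp from the gene start with shALKBH5 and 3708 bp from it with shNC, with folds of 7.28 and 3.36 and log10 p values of -58.6 and -21.9. Each list also held a weak PIK3CG peak with no partner, with folds of 1.81 and 1.82, at different places: they began 2570 bp from the gene start with shALKBH5 and 3109 bp from it with shNC. PIK3R1, the regulatory subunit p85-alpha, had folds of 2.97, 15.1 and 16 with shALKBH5 and 6.42, 23.4 and 14.1 with shNC. The last of these PIK3R1 peaks is a wide one, of 990 and 960 bases, which ended 3419 and 3449 bp before the gene end. PIK3R2, the p85-beta subunit, had folds of 2.43 and 2.45 with shALKBH5 and 2.23 and 3.1 with shNC, at peaks that overlapped those of AC007192.1 on the same strand.

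Among the phosphatases that oppose the pathway, INPP5D (SHIP1, which removes the 5-phosphate of PIP3) had a peak 658 bp from the gene end with a fold of 6.55 with shALKBH5 and 7.56 with shNC. A weak INPP5D peak, with a fold of 1.58 (log10 p -4.96), was in the shNC list alone. PHLPP1 and PHLPP2, which dephosphorylate AKT, were among the genes with the most peaks. PHLPP1 had 5 peaks with shALKBH5 and 4 with shNC, and the single shNC peak of 1200 bases near its end matched a pair in the shALKBH5 list, of 181 and 840 bases. The wider of this pair had a fold of 7.15 (log10 p -129), and the single shNC peak had 7.95 and -132. A spliced PHLPP1 peak, which began 1527 bp from the gene start with shALKBH5 and 1497 bp from it with shNC, had a fold of 15.2 with shALKBH5 and 5.8 with shNC. PHLPP2 had 7 peaks with shALKBH5, the most of any gene here, and 5 with shNC. It too had an shNC peak, of 450 bases, that matched an shALKBH5 pair, of 91 and 330 bases. Its strongest by p, at chr16:71648814-71649383 with shALKBH5 and ending at the same base with shNC, had folds of 14.8 and 13.1 and log10 p values of -62.3 and -62.4. Its highest folds, 23.5 with shALKBH5 and 34.8 with shNC, belonged to a spliced peak that reached 4112 bp and 4202 bp beyond the RefSeq end and overlapped a peak of MARVELD3 on the opposite strand. A PHLPP2 peak of the shALKBH5 list alone, fully beyond that end, had a fold of 11.8 (log10 p -5.31) and also overlapped MARVELD3. No source used here says whether reads keep their strand, so overlapping neighbours cannot be told apart, and 8 pathway genes had such an overlap on the opposite strand.

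PDPK1 encodes PDK1, which phosphorylates AKT in its activation loop. Its strongest peak, at chr16:2597711-2598249, had identical borders in both, with a fold of 8.88 (log10 p -137) with shALKBH5 and 9.56 and -149 with shNC. Each list held 1 weak PDPK1 peak without a partner, with folds of 2.17 with shALKBH5 and 2.65 with shNC. Reads of PDPK1 can be shared with its near-identical copy PDPK2P, for which the lists name 4 peaks, so PDPK1 values are uncertain, and its strongest peak also overlapped one of AC141586.3 on the opposite strand.

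Among the 35 pathway genes with peaks in both lists, AKT1 was the only one where no peak had a partner. The number of such genes over all genes in both lists was not counted. The shALKBH5 list held an AKT1 peak at the gene start, at chr14:104795542-104795751, with a fold of 2.69 (log10 p -23.8), and one at chr14:104770067-104770187, with a fold of 1.44 (log10 p -6.45), which overlapped a peak of AL583722.2 on the opposite strand. The shNC list held 1 AKT1 peak, at chr14:104771354-104771503, with a fold of 16.1 (log10 p -6.48). The nearest AKT1 peaks of the lists lay 1166 bp apart. The start peak of AKT1 had the strongest p of the pathway's peaks without a partner in either list. It ranked 9877 of 24626 by p in its list. AKT2 had a pair of peaks toward its end in both lists, with folds of 3.68 and 1.78 with shALKBH5 and 3.79 and 2.03 with shNC. A further AKT2 peak, spliced and beginning 49 bp upstream of the gene start, stood in the shALKBH5 list alone with a fold of 3.62 (log10 p -8.31).

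Among AKT substrates, AKT1S1 (PRAS40, an inhibitor of mTOR complex 1) shared a peak of 748 bases with shALKBH5 and 718 with shNC, with folds of 8.71 and 5.95. A second AKT1S1 peak, at chr19:49873224-49873463, was listed with shALKBH5 alone, with a fold of 4.71 (log10 p -10.8). GSK3A and GSK3B, kinases that AKT inhibits, each had 1 peak, at the gene start in both lists. The GSK3A peak had a fold of 8.87 (log10 p -86.1) with shALKBH5, beside 7.88 and -35 with shNC. The GSK3B peak had identical borders in both lists, with a fold of 13.4 (log10 p -30) with shALKBH5, beside 6.82 and -16.2 with shNC.

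TSC1 (hamartin), which stabilises the TSC complex, had 6 peaks in each list and each had a partner. Its peak ending 4586 bp from the gene end with shALKBH5 and 4616 bp from it with shNC had folds of 30.6 and 40.8, the second highest fold of the pathway with shALKBH5 and the highest with shNC. In order from gene start to gene end, the other TSC1 sites had folds of 6.79, 4.75, 15.4, 11.1 and 16.6 with shALKBH5 and 21.9, 3.25, 5.54, 3 and 9.55 with shNC. The first of these had log10 p values of -4.96 with shALKBH5 and -11.1 with shNC. TSC2 (tuberin), the partner that acts on RHEB, had a peak in both lists that ended before the RefSeq gene start and overlapped a peak of NTHL1 on the opposite strand, with folds of 7.62 and 9.37. The only other TSC2 peak was a weak one with shALKBH5, with a log10 p of -2.88.

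Of the mTOR complex genes, MTOR, the kinase itself, had a peak 390 bp from the gene end in both lists, with a fold of 4.54 (log10 p -101) with shALKBH5 and 5.49 and -78.8 with shNC. A second MTOR peak, 149 bp away and with a fold of 1.64, was listed with shALKBH5 alone. RPTOR, the defining subunit of complex 1, had 5 peaks in each list, 4 of them shared. Its strongest, at chr17:80965353-80965952 with shALKBH5, had a fold of 14.7 (log10 p -227), and its shNC partner had 12 and -166. At the RPTOR start the lists held a peak each, 178 bp apart, with folds of 3.62 with shALKBH5 and 2.35 with shNC and nearly equal log10 p values of -4.64 and -4.66. RICTOR, the defining subunit of complex 2, had folds of 6.98 and 12.8 with shALKBH5 and 5.1 and 15.6 with shNC.

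MLST8, a subunit of both complexes, had 1 peak near its end, with folds of 5.61 and 5.62 and log10 p values of -265 and -322 with shALKBH5 and shNC. MAPKAP1 (SIN1, a subunit of complex 2) had its single peak in the shALKBH5 list, at the gene start, at chr9:125706994-125707234, with a fold of 2.79 (log10 p -12.4). DEPTOR, an mTOR inhibitor that is highly expressed in some myelomas, had a start peak and a peak toward its end in both lists, with folds of 4.52 and 3.67 with shALKBH5 and 6.84 and 2.36 with shNC. The DEPTOR start peak overlapped one of AP005717.1 on the opposite strand.

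The S6 kinase gene RPS6KB1, whose product is phosphorylated by mTOR complex 1, held the peak with the strongest p of the pathway in the shNC list and the second strongest in the shALKBH5 list. That peak was 809 bases long in both lists, at chr17:59946616-59947424 with shALKBH5 and shifted by 30 bases with shNC, with folds of 20.7 and 22.6 and log10 p values of -800 and -911. It ranked 255 of all peaks by p with shALKBH5 and 221 with shNC. RPS6KB1 also had a start peak in both lists, with folds of 6.2 with shALKBH5 and 4.71 with shNC, and a spliced peak in the shALKBH5 list alone, with a log10 p of -3.86. RPS6KB2 had a start peak with identical borders, with folds of 5.36 with shALKBH5 and 3.64 with shNC, and a peak near its end with folds of 3.18 and 1.8, which overlapped RPS6KB2-AS1 on the opposite strand.

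Nutrient and energy sensing genes had 18 peaks with shALKBH5 and 13 with shNC. Of these, 5 and 0 had no partner. Among PDK1, AKT and the AKT substrates 5 of 12 with shALKBH5 and 2 of 9 with shNC had none, and among PI3K subunits 1 of 15 in each list. Over all peaks of each list the shares were 19.8% and 12.6%. The counts are small, and a difference from those shares was not tested. RRAGA, one of the RAG GTPases that bring mTOR complex 1 to the lysosome, had a single peak with identical borders in both, with a fold of 11.7 (log10 p -360) with shALKBH5 and 11.6 and -349 with shNC. Its partner RRAGC had a peak of 987 and 1016 bases near its end, with folds of 16.2 and 14.1 and log10 p values of -339 and -315, and a start peak with folds of 4.02 and 6.33. The RRAGC end peak overlapped one of AL139260.2 on the same strand. STK11 (LKB1), the kinase that activates AMPK, had a spliced peak of 991 bases in both lists, with a fold of 13.6 (log10 p -558) with shALKBH5 and 12.5 and -526 with shNC. The STK11 peak began 477 bp from the gene start with shALKBH5 and 507 bp from it with shNC, on either side of the 500 bp limit used for start peaks. A second STK11 peak, with a fold of 10.6 (log10 p -6.8), was in the shALKBH5 list alone. PRKAA1, the AMPK alpha-1 subunit, had a site with a fold of 6.79 with shALKBH5 and 22.3 with shNC, but the log10 p values were -4.06 and -5.81.

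SESN1 and SESN2, stress-induced sestrins that act on amino acid sensing, had shared peaks with folds of 2.49, 5.32 and 12.7 at SESN1 and 7.26 at SESN2 with shALKBH5, beside 2.03, 5.07 and 9.37 at SESN1 and 4.03 at SESN2 with shNC. A second SESN2 peak, with a log10 p of -3.39, was in the shALKBH5 list alone. DEPDC5 and NPRL3 are subunits of GATOR1, which restrains the RAG GTPases. DEPDC5 had its single peak in the shALKBH5 list, at chr22:31906294-31906534 and 1499 bp from the gene end, with a fold of 6.47 (log10 p -14). NPRL3 had its strongest peak by p at the gene end, with a fold of 2.37 with shALKBH5 and 2.74 with shNC, where it overlapped a peak of MPG on the opposite strand. A further shared NPRL3 site had folds of 18.1 with shALKBH5 and 17.8 with shNC at log10 p values of -4.57 and -4.52. A pair of NPRL3 peaks with shALKBH5 alone had folds of 11.8 and 17.2 and log10 p values of -3.35 and -4.32.

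The FOXO factors, which AKT keeps out of the nucleus, were all marked in both lists. FOXO3 had 6 peaks in each list, 5 of them shared. Its strongest, at chr6:108679837-108680226 with shALKBH5, had a fold of 25 (log10 p -325), and its shNC partner had 21.4 and -288. A FOXO3 peak 1548 bp from the gene start had identical borders in both lists, with a fold of 23.8 (log10 p -57.1) with shALKBH5 and 9.65 and -21 with shNC. Each list held 1 weak FOXO3 peak without a partner, with folds of 1.87 with shALKBH5 and 2.13 with shNC. FOXO1 had the highest fold of the pathway with shALKBH5, 39.4 with a log10 p of -42.4, at a spliced peak of 1140 bases. In the shNC list a peak of 1619 bases, with a fold of 31.2 (log10 p -36.6), covered that FOXO1 site and a neighbouring one that the shALKBH5 list gives apart with a fold of 11.2. FOXO4 had a peak of 690 bases with identical borders in both lists, with a fold of 11.1 (log10 p -38.5) with shALKBH5 and 6.24 and -19.3 with shNC. A second FOXO4 peak, with a fold of 2.8 (log10 p -2.69), was in the shALKBH5 list alone.

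Of the pathway's 10 peaks with the strongest p in each list, 9 shared a base with a peak among the 10 of the other list. Of its 10 with the highest folds, 7 did. The same overlap was not counted for the leading peaks of all genes. Over all peaks, 80.2% with shALKBH5 and 87.4% with shNC had a partner. Their median log10 p was -23.5 and -21.3, beside -4.32 and -4.21 for peaks without one. The 9 shared pathway peaks by p belonged to PIK3CA, RPS6KB1, STK11, RRAGA, RRAGC, FOXO3, MLST8, RPTOR and PIK3R1. The remaining peak, at PIK3CG with shALKBH5 and at PDPK1 with shNC, also had a partner, but one outside the 10 of the other list. Counting pairs listed under the same gene, 81 pairs of pathway peaks shared a base, in 34 genes. Both borders were equal in 16 of these pairs (19.8%, beside 13.6% of the 20690 same-gene pairs over all genes), 1 border was equal in 38 and neither in 27.

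Peaks were placed along the gene by the RefSeq span, and other annotated starts within the span were not used. FOXO3, for example, has a further start at chr6:108561165, shortly before its peak at chr6:108561373-108561613, which was classed as inside. A peak counted as a start peak if its 5′ edge lay before the gene start or under 500 bp past it, and otherwise as an end peak if its 3′ edge lay less than 1000 bp from the gene end or beyond it. Of the pathway's placed peaks, 17 of 101 with shALKBH5 (16.8%, 10.1 to 25.6%) and 13 of 83 with shNC (15.7%, 8.61 to 25.3%) lay at the start, beside 14.5% and 11.4% over all placed peaks. End peaks made up 21 of 101 (20.8%) with shALKBH5 and 17 of 83 (20.5%) with shNC, beside 22.1% and 23.0%. In both lists 13 genes had a start peak, among them GSK3A, GSK3B, RPS6KB1, RPS6KB2, RRAGA, RRAGC, PIK3R1 and PHLPP1. In the shALKBH5 list alone AKT1, AKT2, MAPKAP1 and STK11 had one, STK11 only by the 500 bp limit. Of the pathway's placed shALKBH5 peaks without a partner, 4 of 21 (19.0%, 5.45 to 41.9%) lay at the start, beside 27.1% over all such peaks of the list.

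**Figure D3:**
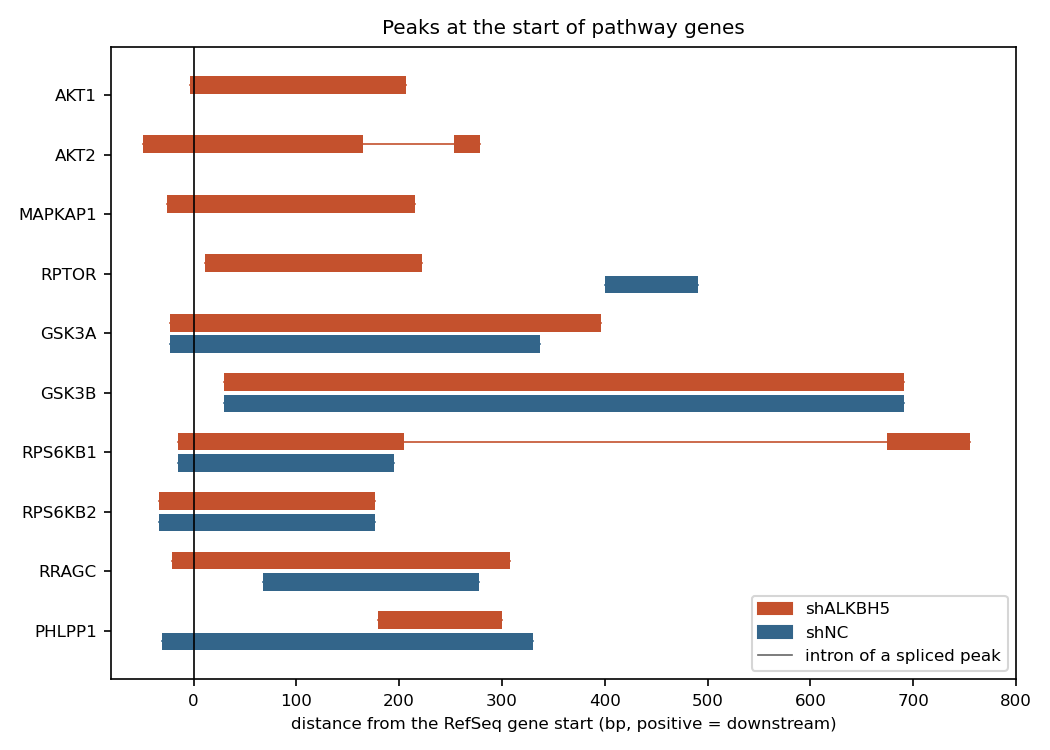
Start peaks of 10 pathway genes (rows) by distance from the RefSeq gene start (x axis, bp), with shALKBH5 above shNC, bars for the blocks of a peak and thin lines for introns. AKT1, AKT2 and MAPKAP1 have a bar with shALKBH5 only, and at RPTOR the bars of the lists lie 178 bp apart.

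**Figure D4:**
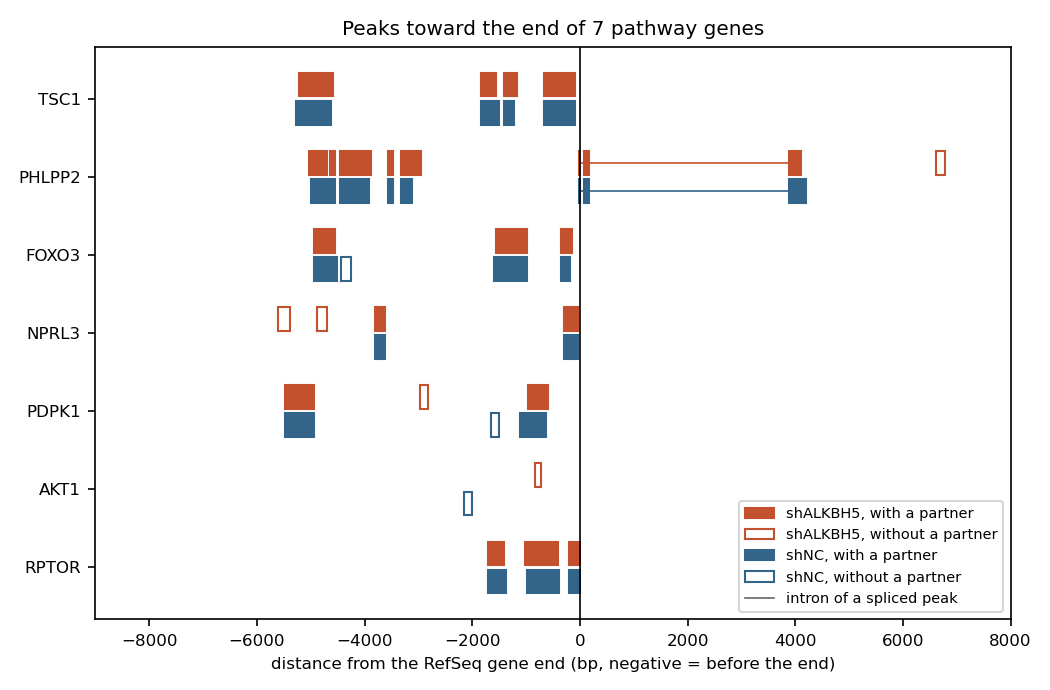
Peaks within 7000 bp of the RefSeq gene end or beyond it for 7 pathway genes (rows), by distance from that end (x axis, bp), with shALKBH5 above shNC. Filled bars have a partner in the other list and open bars do not, as in AKT1, where the 2 lists place their peaks 1166 bp apart.

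A further 61 genes of insulin receptor, PI3K, RAG, AMPK and mTOR signalling were looked up. Of these, 40 were listed in both conditions, 4 with shALKBH5 alone and 0 with shNC alone, and 17 had no peak. The shares over all 12779 genes with a peak were 83.0% in both lists, 11.5% with shALKBH5 alone and 5.50% with shNC alone. Genes without a peak are no part of these shares, so the 17 must be set aside before comparing. The 4 with shALKBH5 alone included LAMTOR1 and LAMTOR5, subunits of the Ragulator complex that anchors the RAG GTPases. The remaining ones were SGK3, a kinase related to AKT, and PRR5L, a protein associated with mTOR complex 2. LAMTOR5 had a start peak with a fold of 6.79 (log10 p -12.2), and the others had log10 p values from -6.76 to -4.32. Of the peaks of these further genes, 15 of 84 with shALKBH5 (17.9%) and 9 of 81 with shNC (11.1%) had no partner, again beside 19.8% and 12.6% over all peaks.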

How the data were processed

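Poly(A) RNA of RPMI-8226 cells was profiled as 1 IP and 1 input library for shALKBH5 and for shNC, per the labels' protocols. Per the submitters' processing notes, the build was hg38 and the tools included HOMER 4.9.1, BWA 0.7.12 and fastp 0.19.11, listed without a role. Which peak caller made the lists, and how IP was scaled to input, was not given in the sources used here. Each condition has 1 peak list from the authors. Per the file headers, the fold is an enrichment ratio. The deposited score column equals the p-value, because its log10 stays within 0.02 of the authors' log10 p. The deposited log10 p and log10 FDR values are treated as scores on a log10 scale. Spreadsheet errors filled 1109 shALKBH5 and 1079 shNC cells of the FDR column, 6 and 4 of them at pathway genes, and were ranked as strongest. The largest FDR in either list was 0.0479. No counts were given, so depth is unknown.

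Coordinates are printed counting from 1. Peaks were placed on RefSeq spans of GRCh38.p14 by symbol or a unique older symbol, which placed 88.2% of shALKBH5 and 88.4% of shNC peaks. Pathway peaks outside the gene's span (at PHLPP2 and TSC2) were left out of position shares. Promoter windows of 300 bases are RefSeq's. The software was SciPy 1.17.1, numpy 2.4.6, pandas 2.3.3 and matplotlib 3.10.9 under Python 3.11.15. Partner calls and positions were tested on simulated data. Intervals are exact (Clopper-Pearson) at 95%. The members and lists were chosen with earlier results of these data known. All 41 genes were to be named, with detail for genes in 1 list alone, with a peak without a partner or at the start, or among the 10 strongest p or highest folds of a list.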

Additional observations from a re-analysis of the deposited data

How the results depend on the processing

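No paired analysis was possible because there is 1 IP and 1 input library per condition and no test between them. The counts of pathway genes and of peaks without a partner were recomputed under these alternatives: a reciprocal overlap of 50%, partners within 200 bp, partners on the same strand, peaks with a fold 2 times the list's lowest or more, an FDR under 0.01, the shALKBH5 list cut by p to as many peaks as shNC has, peaks merged within 100 bp, and genes taken by RefSeq span. Peaks without a partner ranged from 15 to 28 with shALKBH5 and from 4 to 9 with shNC, and genes in the shALKBH5 list alone from 2 to 4. Genes in the shNC list alone stayed at 0 under these alternatives. With lists of equal length, 15 shALKBH5 and 7 shNC peaks had no partner, and IRS1, which ranked 23284 by p, left the list. Over all alternatives 57 values stayed within 1.5 times the count or within the interval of the median, and 5 moved. Counting as start peaks those that overlap a RefSeq promoter window gave 11 with shALKBH5 and 7 with shNC in place of 17 and 13. A window ends 50 bases past an annotated start, so peaks that begin further downstream are not counted. The 11 and the 7 each include a TSC2 peak outside the gene's span, which is not among the 17 or the 13. RRAGA and DEPTOR had start peaks in both lists but no window at hand, so theirs could not be counted. An end window of 500 bp, which can only drop peaks from the 1000 bp window, gave 10 shNC end peaks in place of 17. The median over genes of each gene's highest fold was 11.4 with shALKBH5 and 11.6 with shNC, in place of 6.79 and 6.3 over peaks. This median takes only the highest peak of each gene, so it leaves out the lower folds of genes with several peaks. Causes of the smaller shifts in the other values were not tested.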
